A study of Saccharomyces cerevisiae with 3 samples.

Results

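The promoters described here are those of 270 genes of *Saccharomyces cerevisiae* that the study's gene lists give as bound by Abf1 and by no other factor listed. A gene was a member when it stood in the list of Abf1-bound genes and in none of 5 others (genes bound by Rap1 or by Reb1, ribosomal protein genes, genes with an asymmetric − 1 nucleosome and highly transcribed genes), and when it had exactly 1 row in the list of transcription start sites (TSS). The Abf1 list as used here held 1081 genes, of which 291 were also in the Rap1 list, 47 in the Reb1 list, 37 among the ribosomal protein genes, 19 among the asymmetric − 1 genes and 99 among the highly transcribed genes. Of the 683 in none of these, 270 had exactly 1 TSS in the rows used here (1999 of the 5171 rows of the TSS list), 1 had more and 412 had no row there. The members and all sets they are compared with are therefore those of this stretch of the list, not of the whole genome. They were compared with the other 1701 of the 1971 genes with a single listed TSS. The rule used no value of the libraries, and binding of Abf1 itself was not measured in them.

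In this study, DNA fragments of nucleosomal size left by micrococcal nuclease (MNase) were sequenced from chromatin and from naked DNA. The *dst1∆* chromatin came from a BY4741 derivative that lacks *DST1*, the gene of the elongation factor TFIIS, and was prepared in 2 replicates. The naked DNA came from wild-type BY4741 and was a single library, so it has no replicate error. Cells of both strains were grown exponentially in YPD and cross-linked with formaldehyde, and the naked DNA was purified without MNase and digested afterwards. Chromatin of the wild type was not analysed here, so every comparison of chromatin with naked DNA also compares the mutant strain with the wild type, and these cannot be told apart. Replicate 1 and the naked DNA were read in the same run with reads of 36 bp, and replicate 2 in another instrument with reads that span 46 bp, so replicate and run cannot be told apart. The reads of replicate 2 were sequenced as 50 nucleotides, and which end was trimmed is not given in the sources used here, so its positions may be off by a few bp.

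Abf1 is an essential, sequence-specific protein that binds at many yeast promoters and at replication origins, and is counted among the general regulatory factors, which keep nucleosomes away from the DNA next to their sites. A typical yeast promoter has a nucleosome-depleted region (NDR) just upstream of the TSS, flanked by nucleosome − 1 upstream and by nucleosome + 1 over the start of the gene. MNase digests the DNA between nucleosomes and also cuts some DNA sequences more readily than others, so protein-free DNA has a digestion pattern of its own.

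The *dst1∆* replicates held 10776646 and 9049024 mapped reads and the naked DNA library held 16618987. Repeated reads were capped at 9, 9 and 11 per strand position, which kept 70.5%, 72.5% and 65.2% of the reads. A window of 150 bp then held on average 94.7 and 81.7 fragment centres in *dst1∆* and 135 in naked DNA. All levels below are signal, the count of fragment centres within 81 bp scaled to a genome mean of 100. The mutant label was checked on the reads, and the longest run of positions without a read start in either *dst1∆* replicate, where naked DNA had at least 50, was 534 bp on chromosome VII, which carries *DST1*, with 632 naked DNA starts.

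The members lay on all 16 chromosomes, 145 on the Watson strand and 125 on the Crick strand. Their upstream neighbour pointed away from them in 144 cases (a divergent promoter, 53.3%, against 50.0% of other genes) and the same way in 125 (tandem). Members are not independent of each other, since 88 of them formed 44 divergent pairs that share an upstream region. A fragile − 1 nucleosome, which is easily lost to MNase, was listed for 110 members (40.7%), against 35.4% of other genes, and a TATA box for 47 (17.4%), against 19.5%.

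Aligned at the TSS, the *dst1∆* chromatin of the members showed a regular array with a deep NDR. The mean profile of the members peaked at nucleosome + 1, 56 bp downstream of the TSS in replicate 1 and 53 bp in replicate 2. Further peaks lay at 222 and 220 bp (nucleosome + 2), at 378 and 381 bp, and at 547 bp in both replicates. Upstream, nucleosome − 1 peaked at −242 and −232 bp and the next nucleosome at −406 and −408 bp. In other genes nucleosome − 1 peaked at −227 and −222 bp, and nucleosome + 1 at 57 and 54 bp. The mean − 1 peak of the members thus lay 10 to 15 bp further from the TSS, but after subtraction of the naked DNA signal it lay at −220 and −215 bp in members and at −216 and −215 bp in other genes. Gene by gene, the median − 1 position was −297.5 and −300.5 bp in members and −305 and −298 bp in other genes, so a shift was not seen on these measures. Between − 1 and + 1, the members' profile dropped to 22.5 at −54 bp in replicate 1 and to 16.9 at −61 bp in replicate 2. That of other genes dropped to 22.0 and 19.2, so the depth of the mean NDR was shared. Naked DNA of the members had no such array, with a minimum of 51 at −16 bp.

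**Figure D1:**
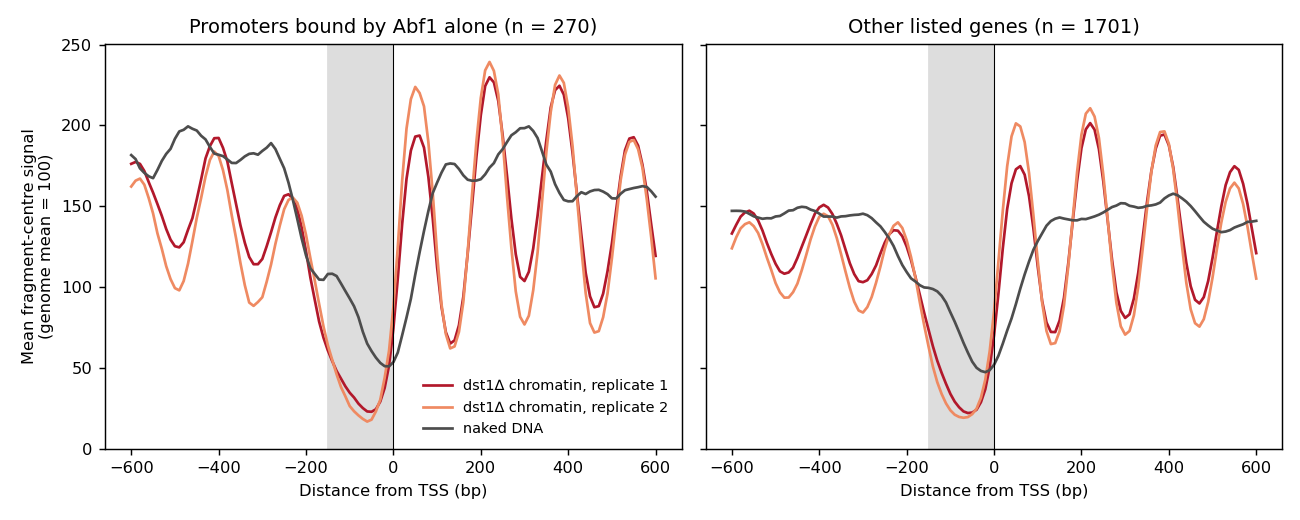
Mean fragment-centre signal (y axis, genome mean of 100) against the distance from the TSS (x axis, bp) in the 270 members (left) and the 1701 other genes (right), with a line for each *dst1∆* replicate and for naked DNA and the NDR window in grey. The members' chromatin lines dip to 22.5 and 16.9 in the NDR, and the naked DNA line to 51.

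Single members varied far more than this mean. In the NDR window, from 150 bp upstream to the TSS, the signal over the 270 members ranged from 1.06 to 829 in replicate 1 (median 18.0), from 0 to 473 in replicate 2 (median 14.6) and from 0.201 to 530 in naked DNA (median 30.4). The medians of other genes were 20.0 and 16.9 in the *dst1∆* replicates and 30.8 in naked DNA. Members over other genes gave a log2 ratio of medians of −0.18 ± 0.05 (SD, n = 2) in *dst1∆* and of −0.02 in naked DNA. The members' median thus lay a little lower in chromatin and close to that of other genes in naked DNA, but it was the higher on 8 and 7 of 16 chromosomes in the *dst1∆* replicates and on 10 of 16 in naked DNA. The mean over genes removed this difference (log2 ratio 0.0047 in *dst1∆*).

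On either side of the NDR, the median signal of the members was higher than that of other genes in all 3 libraries, but not in every subset. At nucleosome − 1 (from 300 bp upstream to the edge of the NDR window), the members' medians were 84.4 and 95.3 in the *dst1∆* replicates and 63.3 in naked DNA. In other genes these medians were 75.3 and 87.6 in *dst1∆* and 45.5 in naked DNA. The difference was thus largest in naked DNA, with a log2 ratio of 0.48, and members were higher there on 11 of 16 chromosomes. Further upstream, from 600 to 301 bp, the log2 ratio in naked DNA was 0.56. The differences were not the same among genes for which the TSS list, as used here, gives no other TSS or end site from 1 to 500 bp upstream (75 members). There, the log2 ratio at − 1 was −0.04 and 0.56 in the *dst1∆* replicates and 0.10 in naked DNA, and that further upstream was −0.11 in naked DNA. At + 1 it was 0.0055 and 0.059 in *dst1∆* and −0.19 in naked DNA. These genes are not free of close neighbours, since 15 of the 75 members have a listed site at the TSS itself and 19 have an upstream neighbour outside the rows used.

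At nucleosome + 1 (the TSS to 149 bp downstream), the members' medians were 101.7 and 119.7 in *dst1∆* and 53.5 in naked DNA. Those of other genes were 93.4 and 114.5 in *dst1∆* and 43.3 in naked DNA. After subtraction of the naked DNA signal, with negative values set to 0, the medians at + 1 were 51.9 and 63.7 in members and 51.1 and 69.1 in other genes. In the NDR window they were 4.58 and 5.22 in members, against 5.77 and 6.93 in other genes.

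The position of nucleosome + 1, taken gene by gene as the highest point of the smoothed signal from −20 to 150 bp, had a median of 56 and 57 bp over the members and of 59 bp in other genes in both replicates. The distance between the quartiles was 34 and 36 bp in members and 45 and 49 bp in other genes, so the + 1 position of the members was spread less widely than in other genes as a whole. It was 31 and 29 bp in 58 genes bound by Reb1 alone, 36 and 41 bp in 1090 genes in none of the 6 lists, and 110.5 and 100 bp in 71 genes bound by Abf1 and Rap1, so the narrow spread was shared with other sets. The highest point stood at an edge of the search range in 42 and 36 members. Both replicates placed + 1 within 20 bp of each other in 214 members (79.3%), against 77.5% of other genes, and nucleosome − 1 in 150 (55.6%), against 60.4%. The distance from − 1 to + 1, a measure of NDR width, had a median of 379.5 and 362.5 bp in members and 383 and 375 bp in other genes. In the genes bound by Reb1 alone, another general regulatory factor, this distance was 306.5 and 308.5 bp. Since 61 and 64 of the members' − 1 positions stood at a search edge, the search range sets the width of those genes.

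To ask where chromatin differed from its own DNA, the signal of each *dst1∆* replicate was set over that of naked DNA gene by gene, with 5 added to both. A gene was called where both replicates differed from naked DNA by 2-fold or more in the same direction. Both ratios share the single naked DNA library, so an error in it moves both the same way. The SD of such ratios leaves that error out. With 2 libraries against 1, an exact permutation of the library labels cannot give a p below 33.3%, and calls carry no p-value. In the NDR window, 100 members (37.0%) were called lower, where 32.1% of all genes tested were, and 27 (10.0%) higher, where 10.3% of all genes were. The median log2 ratio was −0.67 and −0.96 in members and −0.49 and −0.67 in other genes. In 63 of the 100 members called lower, a *dst1∆* replicate held 3 or fewer fragment centres in the window, so the size of their depletion is poorly known, and 27 members had none in replicate 2.

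In the other windows, the members' shares of higher calls lay below the background and their shares of lower calls above it, by a few percentage points in most cases. At nucleosome + 1, 95 members (35.2%) were called higher, where 38.4% of all genes were, and 20 (7.41%) lower, where 4.82% were. At + 2 (150 to 299 bp), 64 (23.7%) were higher, where 25% of all genes were, and 20 (7.41%) lower, where 5.18% were. At − 1, 61 members (22.6%) were higher, where 29% of all genes were, and 35 (13%) lower, where 11% were. The median log2 ratio at − 1 was 0.13 and 0.12 in members and 0.44 and 0.65 in other genes, beside the higher naked DNA signal given above. Both lower in the NDR and higher at + 1 were 31 members (11.5%), where 11.9% of all genes were.

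**Figure D2:**
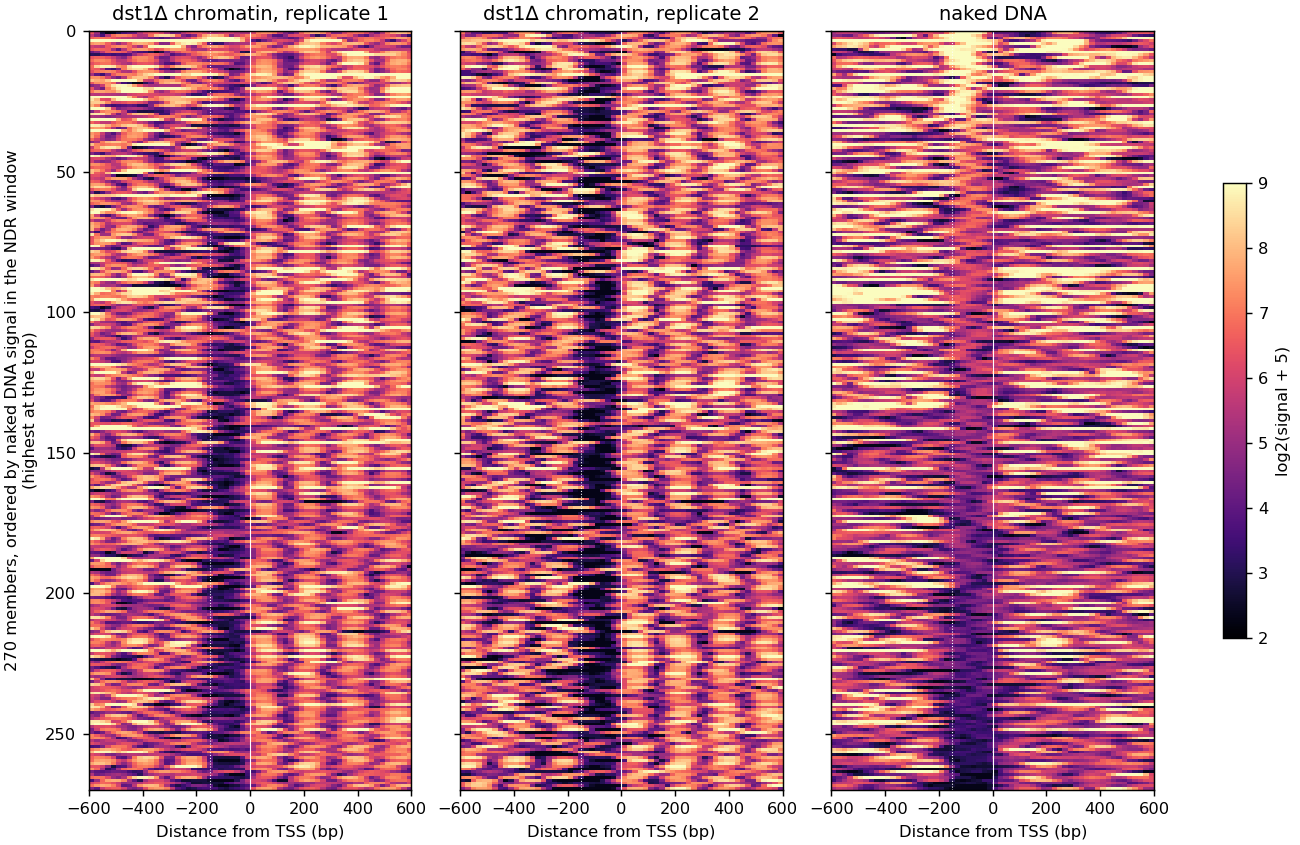
Signal of all 270 members (rows, ordered by naked DNA signal in the NDR window, highest at the top) against the distance from the TSS (x axis, bp), as log2 of the signal plus 5 in colour, in the *dst1∆* replicates and naked DNA. The NDR column is dark in most rows of *dst1∆*, but less so at the top. There, 51 members are above 100 in naked DNA, and 24 of these are below 50 in both *dst1∆* replicates.

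The level that naked DNA itself had in the NDR window split the members. In 51 of them (18.9%) it was above 100, that is, fragments of nucleosomal size were recovered from protein-free DNA at more than the genome mean. Their medians were 48.7 and 27.3 in the *dst1∆* replicates and 257 in naked DNA. Chromatin was called lower in 39 of these (219 of the 316 other genes in this class), was below 50 in both replicates in 24, and was above 100 in both in 8. In the 122 members with naked DNA between 20 and 100, the medians were 16.6 and 13.3 in *dst1∆* and 43.1 in naked DNA, and 57 were called lower (285 of 754 other genes). In the 97 members below 20, they were 12.2 and 13.5 in *dst1∆* and 11.1 in naked DNA, with 4 called lower and 24 higher (28 and 144 of 631 other genes). Naked DNA is the denominator of the call, so these classes fix much of the split between lower and higher calls. Across members, naked DNA in the NDR window had a Spearman correlation of 0.36 with replicate 1 and 0.17 with replicate 2. The replicates had 0.78 with each other (n = 270 genes, which share libraries and in part upstream regions). In every other window, replicate 1 correlated more closely with naked DNA, read in its run, than with replicate 2. At − 1 it had 0.67 with naked DNA and 0.61 with replicate 2, and at + 2 it had 0.79 and 0.48. The part of the run in this was not tested.

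The 5 members with the highest naked DNA signal in the NDR window differed in what their chromatin showed. *RAD53* encodes a checkpoint kinase of the DNA damage response (Crick strand of chromosome XVI, TSS at 264373 of sacCer2) and had 43.3 and 7.66 in *dst1∆* and 530 in naked DNA. *RSE1*, a splicing factor gene, had 21.9 and 2.27 in *dst1∆* and 511 in naked DNA. *GDH2*, which encodes the NAD-dependent glutamate dehydrogenase, had 130 and 52.3 in *dst1∆* and 524 in naked DNA. These 3 were lower in both replicates. *HNT1*, a gene of a nucleoside monophosphoramidase, had 546 and 104 in *dst1∆* and 521 in naked DNA. *AFG3*, which encodes a subunit of the mitochondrial m-AAA protease, had 829 and 257 in *dst1∆* and 513 in naked DNA. In these 2 genes, replicate 1 was near or above naked DNA and replicate 2 below it. At nucleosome − 1, *AFG3* was as high, with 1014 and 326 in *dst1∆* and 618 in naked DNA. Its listed TSS, at 191949 of chromosome V, is also the listed end of its tandem neighbour *SPC25*, another member. The NDR and − 1 windows of *AFG3* thus lie within the transcript of *SPC25*. In replicate 1, the + 1 position of *HNT1* and of *AFG3* stood at −20 bp, the edge of the search range.

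At the other end, 5 members had nearly no naked DNA signal in the window. *URA7*, a CTP synthase gene, had 6.53 and 1.75 in *dst1∆* and 0.201 in naked DNA, where no fragment centre fell in the window. *CDC55*, which encodes a regulatory subunit of protein phosphatase 2A, had 10.6 and 9.79 in *dst1∆* and 1.89 in naked DNA. The uncharacterised genes YLL032C and YHR078W and the cargo receptor gene *EMP47* had between 0.265 and 2.05 in naked DNA and between 1.56 and 27.8 in *dst1∆*. Only *CDC55* was called higher, on 8 and 6 fragment centres in *dst1∆* and 2 in naked DNA. A count of 0 allows up to 3 centres, so at such levels a 2-fold difference was hardly detectable at this depth.

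**Figure D3:**
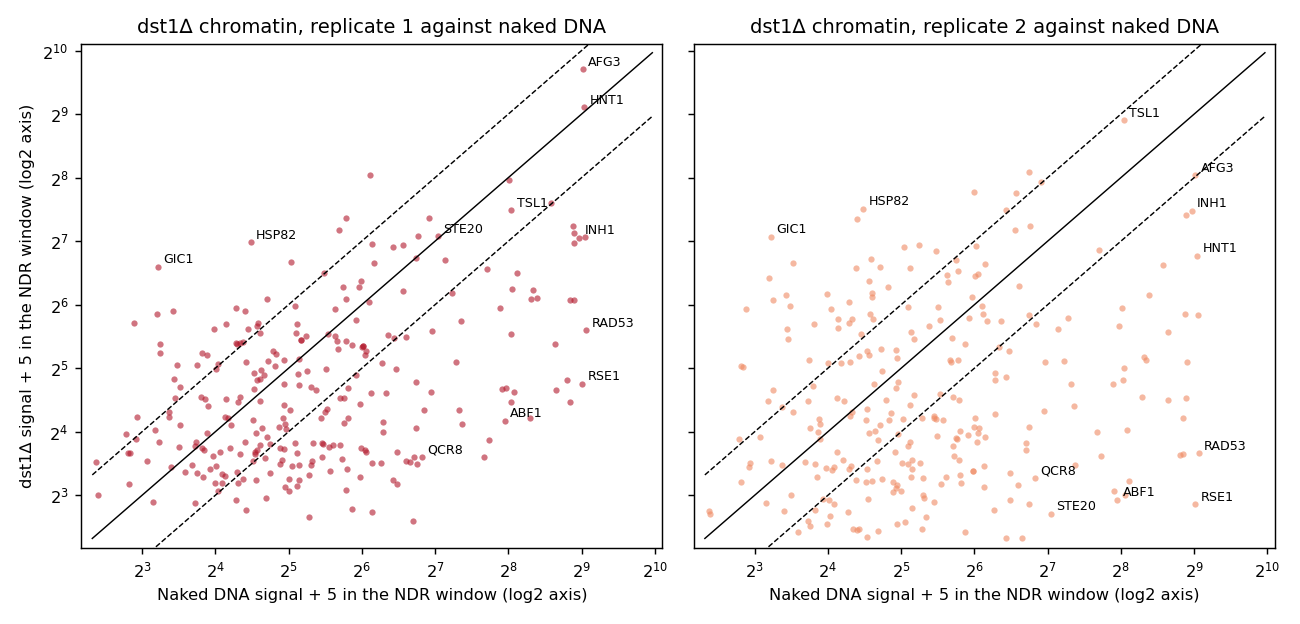
Signal plus 5 in the NDR window of *dst1∆* (y axis, log scale; replicate 1 left, replicate 2 right) against naked DNA (x axis, log scale), with a point for each of the 270 members. The solid line marks equal signal and the dashed lines a 2-fold difference, and the 51 members above 100 in naked DNA stand mostly below the lower dashed line (39 in both replicates).

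The promoter of *ABF1* itself is a member (YKL112W, Watson strand of chromosome XI, TSS at 226026). Its NDR window had 13.1 and 2.61 in the *dst1∆* replicates and 242 in naked DNA. This rested on 12 fragment centres in replicate 1 (95% Poisson interval 6.20 to 21.0), 3 in replicate 2 (0.619 to 8.77) and 321 in naked DNA (287 to 358), with intervals that cover counting error only. The log2 ratio of *dst1∆* to naked DNA was −3.77 and −5.02. Naked DNA had a single peak there of 682 at −145 bp, where the *dst1∆* replicates had 11.7 and 2.27. Within 300 bp upstream of *ABF1*, the highest *dst1∆* signal lay on the far side of this peak, at −242 and −258 bp, with 68.5 and 136 in *dst1∆* and 11.0 and 4.12 at the same points in naked DNA. At nucleosome + 1, *ABF1* had 83.4 and 112 in *dst1∆* and 71.3 in naked DNA. The upstream region is shared with *RAD27*, the gene of the flap endonuclease FEN-1, also a member, with its TSS 460 bp away, and between the TSSs the mean signal was 18.2 and 27.0 in *dst1∆* and 142 in naked DNA.

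*QCR8* encodes a subunit of the mitochondrial cytochrome bc1 complex (YJL166W, Watson strand of chromosome X, TSS at 106330) and is listed with a fragile − 1 nucleosome and a TATA box. In the NDR window, *QCR8* had 7.12 and 4.66 in *dst1∆* and 108 in naked DNA, from 3 (0.619 to 8.77) and 1 (0.0253 to 5.57) fragment centres in *dst1∆* and 148 (125 to 174) in naked DNA. The log2 ratio was −3.22 and −3.55. Its naked DNA peaked at 195 at −76 bp, where the *dst1∆* replicates had 5.87 and 0. At nucleosome + 1, *QCR8* had 104 and 171 in *dst1∆* and 53.3 in naked DNA.

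**Figure D4:**
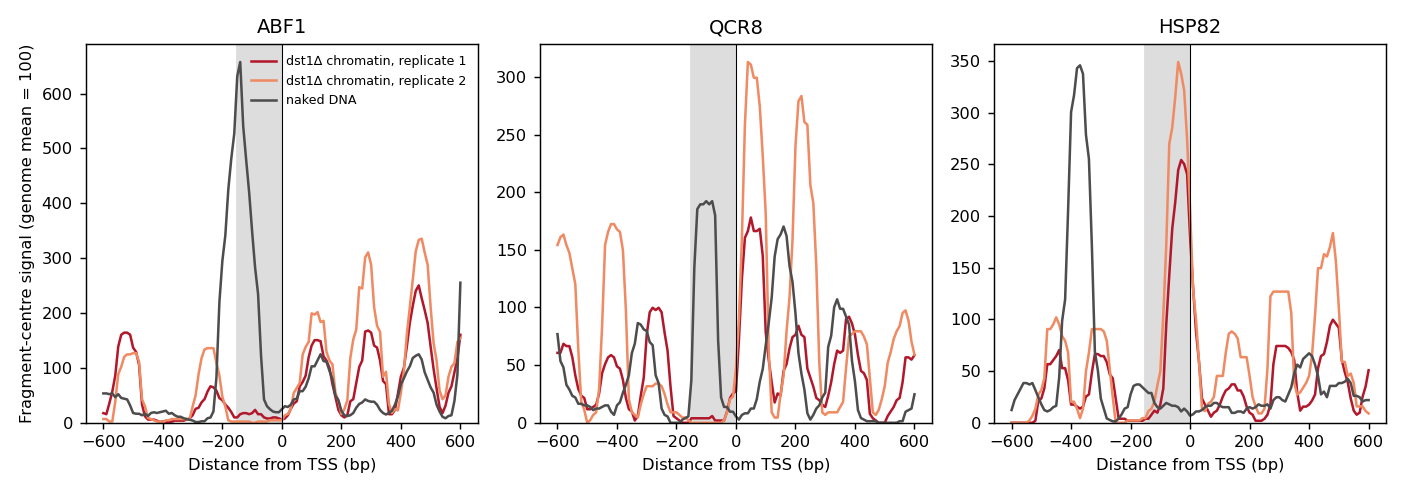
Fragment-centre signal (y axis, genome mean of 100, a scale of its own in each panel) against the distance from the TSS (x axis, bp) at *ABF1*, *QCR8* and *HSP82*, with a line for each *dst1∆* replicate and for naked DNA and the NDR window in grey, drawn every 10 bp so that a peak can look slightly lower than its value. Naked DNA peaks at 682 and 195 upstream of *ABF1* and *QCR8*, where both *dst1∆* replicates are near 0, and at *HSP82* the *dst1∆* replicates peak at 256 and 354 inside the window.

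In 27 members chromatin was called higher than naked DNA in the NDR window, and 24 of them had a naked DNA signal below 20. *HSP82*, the gene of the heat-inducible Hsp90 chaperone, had 121 and 177 in *dst1∆* and 17.4 in naked DNA, from 130 and 162 fragment centres in *dst1∆* and 18 in naked DNA. Its chromatin peaked at −29 bp (256) and −41 bp (354). The log2 ratio of 2.76 ± 0.38 (SD, n = 2) became 1.02 when the window ran from 200 to 50 bp upstream. In both replicates the + 1 position of *HSP82* stood at −20 bp, the edge of the search range. The fixed windows may thus not separate the NDR from + 1 there. The histone H2A gene *HTA2* had 47.2 and 56.2 in *dst1∆* and 2.41 in naked DNA, and *GIC1*, which encodes an effector of the GTPase Cdc42, had 91.6 and 129 in *dst1∆* and 4.33 in naked DNA. *GPA1*, the gene of the G-protein subunit of the pheromone response, had 52.6 and 80.3 in *dst1∆* and 4.19 in naked DNA. *HTA2*, *GIC1* and *GPA1* were named here after their values were seen.

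The highest *dst1∆* signals in the NDR window, by the mean of both replicates, were those of *AFG3* and *HNT1* above and of 3 more genes. *TSL1*, of the trehalose synthase complex, had 174 and 473 in *dst1∆* and 259 in naked DNA. *HXT2*, a hexose transporter gene, had 160 and 240 in *dst1∆* and 116 in naked DNA, and *BDH2*, an alcohol dehydrogenase-like gene, had 102 and 268 in *dst1∆* and 102 in naked DNA. All 3 are listed with a TATA box. Signal above 100 in both replicates was present in 11 members (4.07%), against 3.23% of other genes.

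The emptiest NDR windows in chromatin belonged to *RPN1* (a proteasome subunit), *PTA1* (a subunit of the cleavage and polyadenylation factor), *CCT7* (a subunit of the chaperonin CCT), *WHI4* (an RNA-binding protein) and *NHP2* (a protein of the H/ACA snoRNPs). They had 1.33 to 2.75 in replicate 1, 0.348 to 1.04 in replicate 2 and 8.22 to 53.3 in naked DNA. *PTA1* had 1 and 0 fragment centres in *dst1∆* and 74 in naked DNA, and *CCT7* had none in either replicate, against 16 in naked DNA. *NHP2* alone of these 5 was not called lower, with 1 centre in each replicate and 11 in naked DNA. Signal below 20 in both replicates was present in 126 members (46.7%), against 42.4% of other genes.

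Beyond *ABF1*, 43 pairs of members were divergent neighbours that share an upstream region. The TSSs of the 44 pairs lay 92 to 3580 bp apart, with a median of 240 bp, and in 25 pairs they were less than 300 bp apart. Between the TSSs, the median over pairs was 31.0 and 42.5 in *dst1∆* and 50.9 in naked DNA. Both replicates were lower than naked DNA in 28 pairs (63.6%), against 61.7% of 342 divergent pairs of other genes, and both were below 50 in 23 (52.3%), against 61.4%. The medians of the other pairs were 25.9 and 23.8 in *dst1∆* and 42.4 in naked DNA. *ERV46* (a protein of COPII vesicles) and *PTA1* share a region of 188 bp with a signal of 8.09 and 10.6 in *dst1∆* and 51.8 in naked DNA. In *ICE2* (a protein of the endoplasmic reticulum) and *UTP25* (a ribosome biogenesis factor), also 188 bp apart, it was 20.5 and 6.05 in *dst1∆* and 190 in naked DNA.

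A larger share of tandem than of divergent members was called lower, a difference that was not tested. In the 125 tandem members, 54 (43.2%) were called lower in the NDR window, against 29.6% of other tandem genes, and the median log2 ratio of *dst1∆* to naked DNA was −0.85 and −1.19, against −0.42 and −0.64. In the 144 divergent members, 46 (31.9%) were called lower, against 33.3% of other divergent genes, with medians of −0.48 and −0.65, against −0.57 and −0.73. The median chromatin signal of tandem members was 13.8 and 12.2, and that of divergent members 21.0 and 17.7, at naked DNA medians of 30.1 and 30.7. Of the members with a fragile − 1 nucleosome, 48 of 110 (43.6%) were called lower, close to 42.5% of other fragile genes. Without it, 52 of 160 members (32.5%) were, against 25.1% of other genes without it. The NDR medians of the fragile members were 11.6 and 9.26 in *dst1∆* and 30.0 in naked DNA, and those of the remaining 160 were 24.8 and 23.7 in *dst1∆* and 31.9 in naked DNA. At nucleosome − 1, the medians were 64.9 and 63.6 in *dst1∆* and 55.5 in naked DNA for the fragile members, against 89.0 and 113 in *dst1∆* and 66.8 in naked DNA for the others.

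Members with a TATA box had more naked DNA signal upstream of the TSS. In the 47 TATA members, the median at nucleosome − 1 was 90.1 and 93.7 in *dst1∆* and 176 in naked DNA, and in the NDR window 40.6 and 31.0 in *dst1∆* and 72.9 in naked DNA. Over other TATA genes, their naked DNA gave a log2 ratio of medians of 1.19 at − 1 and 0.88 in the NDR. In the NDR window 18 of them (38.3%) were called lower, against 29.2% of other TATA genes.

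Of the members, 76 were sorted by the role of their product into 5 lists. The lists were picked by systematic name with earlier results of these data known, and need not hold every member of a role. The 23 genes in the mitochondrial list had NDR medians of 16.2 and 11.8 in *dst1∆* and 99.4 in naked DNA. The last was above the 30.4 of all members. Of the 23 genes, 14 (60.9%) were called lower, where 32.1% of all genes were, and 1 higher. Naked DNA is the denominator of the call, and 39 of the 51 members above 100 in naked DNA were called lower. A fragile − 1 nucleosome is listed for 13 of the 23. The genes called lower included *MDM38* (mitochondrial ion homeostasis), with 23.2 and 7.42 in *dst1∆* and 443 in naked DNA, and *PUT2* (proline catabolism), with 17.0 and 23.2 in *dst1∆* and 257 in naked DNA. *FUM1*, the fumarase gene, was called lower but was not empty, with 134 and 166 in *dst1∆* and 470 in naked DNA, and likewise *INH1*, the inhibitor of the ATP synthase, with 128 and 173 in *dst1∆* and 495 in naked DNA. *REX2*, an RNA exonuclease gene, was the member called higher, with 96.6 and 115 in *dst1∆* and 27.9 in naked DNA. Of the 6 genes of the mitochondrial list in the set with no other site listed from 1 to 500 bp upstream, 3 were called lower.

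The 14 genes of ribosome biogenesis and the exosome had the emptiest chromatin of the 4 larger lists, with NDR medians of 8.42 and 3.18 in *dst1∆* and 13.9 in naked DNA. Of these, 7 (50%) were called lower, where 32.1% of all genes were, and none higher, and 11 are listed with a fragile − 1 nucleosome. *LRP1*, a cofactor of the nuclear exosome, had 13.5 and 18.5 in *dst1∆* and 309 in naked DNA. *NUG1*, a GTPase of 60S subunit export, had 6.23 and 2.31 in *dst1∆* and 103 in naked DNA. The exosome ribonuclease gene *DIS3* had 8.41 and 6.76 in *dst1∆* and 13.4 in naked DNA, and was not called.

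The 23 genes of transcription and chromatin factors were near the background, with 7 (30.4%) called lower and 2 higher, and medians of 21.5 and 14.0 in *dst1∆* and 30.4 in naked DNA. *TAF14*, a subunit of TFIID and of chromatin remodelers, had 3.74 and 0.846 in *dst1∆* and 25.9 in naked DNA. *SWI3*, of the SWI/SNF remodeler, had 78.2 and 213 in *dst1∆* and 58.7 in naked DNA, and was not called. Of 13 genes of DNA replication, repair and mitosis, 2 were called lower (*RAD53* and *TUB2*, the gene of beta-tubulin, with 6.43 and 1.84 in *dst1∆* and 72.0 in naked DNA) and 2 higher. The 3 CCT chaperonin genes had medians of 7.60 and 0.529 in *dst1∆* and 16.4 in naked DNA, and 2 were called lower. At nucleosome + 1, the genes called higher were 8 of 14 in ribosome biogenesis and the exosome, 7 of 23 in transcription and chromatin, 5 of 13 in replication, repair and mitosis, 4 of 23 in the mitochondrial list and none of 3 in CCT, where 38.4% of all genes were. These lists are short and were compared by count alone, and the percentages of the larger lists stand beside 32.1% of all genes.

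**Figure D5:**
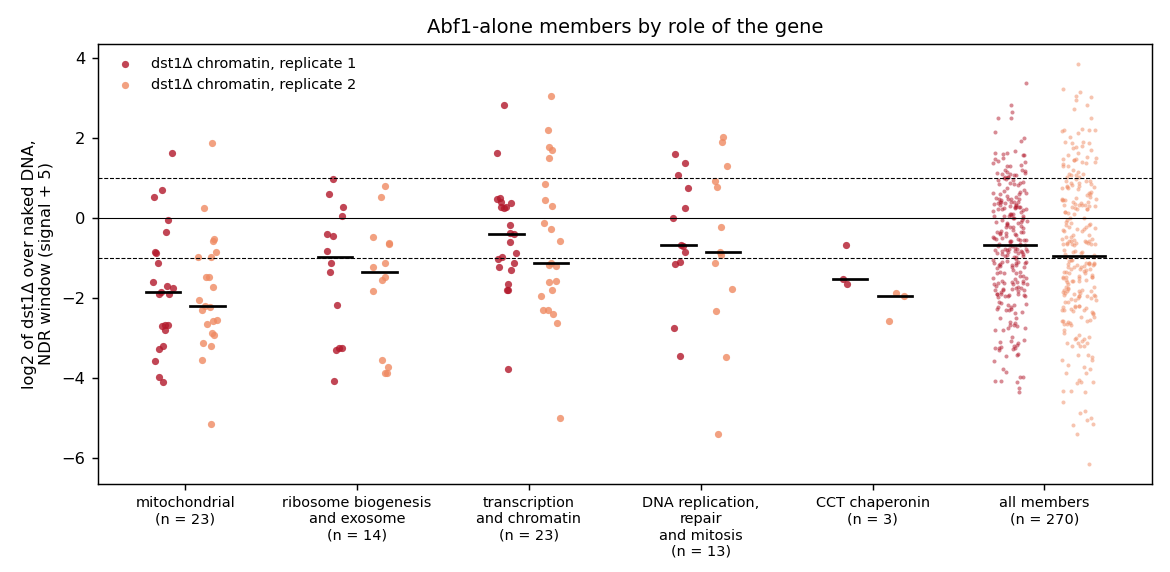
The log2 ratio of *dst1∆* to naked DNA in the NDR window (y axis, 5 added to both signals) for each member of the 5 role lists and for all 270 members (x axis), with the *dst1∆* replicates side by side in each group and black bars at the medians. The dashed lines mark a 2-fold difference. Of the 23 genes in the mitochondrial list, 14 are below the lower line in both replicates (60.9%, where 32.1% of all genes were).

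The 2 replicates differed by 2-fold or more in the NDR window in 67 members (24.8%), against 23.9% of other genes, with replicate 1 the higher in 42 and replicate 2 in 25. The largest differences upward in replicate 1 were all in genes with a naked DNA signal above 100. *STE20*, a kinase gene of the mating pathway, had 130 and 1.54 in *dst1∆* and 127 in naked DNA, from 123 and 0 fragment centres in *dst1∆*. *HIS1*, the gene of the initial enzyme of histidine synthesis, had 71.2 and 3.01 in *dst1∆* and 261 in naked DNA, and *NCP1*, of the cytochrome P450 reductase, had 85.1 and 4.32 in *dst1∆* and 272 in naked DNA. *SLA2* (endocytosis) and *KTD1* (killer toxin defence) had 121 and 62.5 in replicate 1, 18.1 and 7.62 in replicate 2, and 470 and 454 in naked DNA. Replicate 1 was read in the run of the naked DNA, and the part of the run in these differences was not tested.

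The largest differences upward in replicate 2 were in genes with a naked DNA signal between 6.47 and 89.9. *SRY1*, a gene of hydroxyaspartate catabolism, had 21.2 and 96.3 in *dst1∆* and 6.47 in naked DNA, and its divergent neighbour *JEN1*, 3580 bp away, of the lactate permease, had 54.8 and 158 in *dst1∆* and 16.1 in naked DNA. *ERG20*, of isoprenoid synthesis, had 69.1 and 212 in *dst1∆* and 89.9 in naked DNA. *SWP82* (SWI/SNF) and *LAG2* were also among these. *HXK2*, a hexokinase gene, had 26.0 and 6.38 in *dst1∆* and 33.1 in naked DNA in the NDR window, a log2 ratio of −0.30 and −1.74, so the replicates did not give it a call.

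At nucleosome + 1 the highest members in *dst1∆* were high in naked DNA as well. *ERV46* had 516 and 970 in *dst1∆* and 697 in naked DNA, *PKP1* (a mitochondrial kinase) 650 and 568 in *dst1∆* and 707 in naked DNA, and *MTO1* (mitochondrial tRNA modification) 700 and 541 in *dst1∆* and 611 in naked DNA. *SPC25*, of the Ndc80 kinetochore complex, had 557 and 573 in *dst1∆* and 309 in naked DNA, and *TSL1* had 589 and 508 in *dst1∆* and 412 in naked DNA. None of these 5 was called higher than naked DNA at + 1. Across members, + 1 of replicate 1 had a Spearman correlation of 0.68 with naked DNA and that of replicate 2 had 0.47. Between the replicates it was 0.54.

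The lowest + 1 signals were those of *UBP1* (a ubiquitin protease), *ASH1* (a repressor of mating type switching), *ETP1*, *LAM4* (a sterol transfer protein) and *JEN1*. *UBP1* had 12.2 and 3.20 in *dst1∆* and 1.84 in naked DNA, and *ASH1* had 13.5 and 8.90 in *dst1∆* and 1.75 in naked DNA, so both were low in each library. *LAM4* differed from them, with 40.9 and 9.20 in *dst1∆* and 383 in naked DNA, log2 ratios of −3.08 and −4.77. Its NDR window, in turn, had 119 and 94.6 in *dst1∆* and 65.7 in naked DNA. *ASH1*, *ETP1* and *JEN1* likewise had more *dst1∆* signal in the NDR window than at + 1. In the NDR window it was 47.6 and 100 in *ASH1*, 257 and 52.5 in *ETP1*, and 54.8 and 158 in *JEN1*. At + 1 it was 13.5 and 8.90 in *ASH1*, 19.5 and 16.5 in *ETP1*, and 21.1 and 35.5 in *JEN1*. The + 1 position stood at an edge of the search range (−20 or 150 bp) in both replicates of *ASH1*, *ETP1* and *LAM4*, and in replicate 1 of *JEN1*. The fixed windows may thus not separate the NDR from + 1 in these genes.

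Other sets of listed genes were measured in the same way to place the members. Of the 58 genes bound by Reb1 alone, 23 (39.7%) were called lower in the NDR window and 1 higher. At − 1, 22 (37.9%) were called higher, where 22.6% of the members were. The members' NDR medians over those of this set gave log2 ratios of 0.11 and 0.61 in *dst1∆* and −0.14 in naked DNA. The mean profile of this set dropped to 11.9 and 13.8 in *dst1∆*, and that of the members to 22.5 and 16.9. Of the 71 genes bound by Abf1 and Rap1, 18 (25.4%) were called lower in the NDR window and 8 higher. Their NDR medians were 35.8 and 28.6 in *dst1∆* and 40.2 in naked DNA, so the members' *dst1∆* medians lay lower by 0.99 and 0.97 on the log2 scale. The 1090 genes in none of the 6 lists had NDR medians of 18.2 and 16.9 in *dst1∆* and 29.2 in naked DNA. Over these, the members gave a log2 ratio in *dst1∆* of −0.12 ± 0.14 (SD, n = 2), within the spread between replicates. These sets share the libraries and were compared without a test.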

How the data were processed

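MNase-seq reads of 2 *dst1∆* chromatin libraries and 1 naked DNA library were used. The authors aligned them to sacCer2 with GEM, with up to 3 mismatches, and discarded ambiguous reads. Each deposited file gives the start, end and strand of each read, not a count per gene, with repeated reads included. The display score of 1000 that the authors deposited in each line carries no measurement and was not used. TSSs and gene lists are those of the study (the leading 1999 of 5171 rows of the TSS list, so neighbours outside them were not seen), and symbols and gene order are those of the RefSeq table, which matched 269 of the 270 members. The members and role lists were chosen with earlier results of these data known.

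Mitochondrial reads were left out. Repeated reads on a strand position were kept up to a cap set from the Poisson distribution (probability 1e-10), and each centre was taken 73 bp downstream of its read start. For peaks, the signal was smoothed with an SD of 20 bp. Calls needed 2-fold in both replicates after adding 5. The naked DNA correction was a subtraction, and DANPOS was not run. The calculations were tested on simulated data, whose depleted genes had at the outset been set too near 2-fold and were then set lower. With 2 libraries against 1, no p-value was computed.

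Named genes are *ABF1*, *QCR8*, *HSP82* and *HXK2*, and the 5 members at each end of the naked DNA signal and the mean *dst1∆* signal in the NDR window, of the replicate difference there, and of the mean *dst1∆* signal at + 1. Extremes are descriptions. Other genes were picked after their values were seen. Promoter sequences, motifs and base composition were not analysed here. Alternatives covered the cap, the width counted around centres, scaling, depth, windows, pseudocount, smoothing, neighbours and each replicate. Software was pandas 2.3.3, scipy 1.17.1, matplotlib 3.10.9 and numpy 2.4.6 in Python 3.11.15.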

Additional observations from a re-analysis of the deposited data

How the results depend on the processing

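No paired analysis was possible because the naked DNA is a single library. The log2 ratio of members to other genes in naked DNA of the NDR window was near 0 (−0.02) and changed sign with the processing. It was 0.040 with 1 read per strand position, 0.17 with a nucleosome-length span in place of 81 bp around each centre, 0.19 in a window from 200 to 50 bp upstream, 0.039 from 120 to 20 bp, and 0.13 as a mean over genes. It was −0.027 with no cap on repeated reads, −0.0085 after thinning to the shallowest library and −0.26 in genes with no listed site from 1 to 500 bp upstream. In *dst1∆* the same ratio (−0.18) was −0.0047 with the longer span, −0.45 without listed upstream sites, −0.28 and −0.33 in the windows of 200 to 50 and 120 to 20 bp, and 0.0047 as a mean over genes. With a replicate left out it was −0.22 to −0.15.

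The members' median log2 ratio of *dst1∆* to naked DNA in the NDR (−0.82) was below 0 in all 12 alternatives. It was −0.61 with no cap, −1.13 with 1 read per position, −0.077 with the longer span, −1.68 with the genome median set to 100, −0.60 and −1.16 in the windows of 200 to 50 and 120 to 20 bp, −0.43 with a pseudocount of 20, and −0.96 to −0.67 with a replicate left out. Scaling to the median moved that of all genes too, to −1.44 from −0.60, and the members lay below all genes by a log2 difference of −0.28 to −0.07 in every setting (−0.22). The share of members called lower (37.0%, where 32.1% of all genes were) was 18.1% with the longer span (15.9% of all genes), 55.9% with median scaling (52.4%), 28% without listed upstream sites (28.2%) and 40.4% to 48.5% with a replicate left out (36% to 42.8% of all genes). The share called higher at + 1 (35.2%, where 38.4% of all genes were) was 9.63% with 1 read per position (14.2% of all genes), 13% with median scaling (18.2%), 34.7% without listed upstream sites (35.6%) and 42.6% to 51.1% with a replicate left out (47.1% to 53.6%). The counts were 49 with the longer span and 21 of 75 without listed upstream sites (lower), and 26 with 1 read per position, 35 with median scaling and 26 of 75 without listed upstream sites (higher), beside 100 lower and 95 higher as reported. The + 1 position (56.5 bp) was 75.2 bp with the longer span, 57.5 bp without listed upstream sites, 48.2 bp with naked DNA subtracted, 55 bp with a smoothing SD of 10 bp, and 56 to 57 bp with a replicate left out. The NDR width (371 bp) was 416 bp, 349 bp and 337 bp under the same 3 alternatives before the smoothing, and 362.5 to 379.5 bp with a replicate left out. Analyses added after the data were seen gave 11 to 19 genes of the mitochondrial list called lower (14 as reported), with all 23 kept. They gave 27 to 78 tandem members called lower (54), with all 125 kept. Over these settings, the share of all genes called lower ran from 15.9% to 52.4%. Among the 75 members without listed upstream sites, 3 of 6 genes of the mitochondrial list and 12 tandem members were called lower. In that set 28% of members and 28.2% of all genes were called lower. The 12 are a count without a share, so whether tandem members there differed from other tandem genes was not tested. The naked DNA ratio at − 1 (0.48) was 0.10 to 0.51. *ABF1* and *QCR8* were below 0 and *HSP82* above 0 in all 11 alternatives run for them. Without a replicate of naked DNA, its error is unknown, and where under 4 centres were counted, a larger depletion could not be told from a smaller one.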

Other observations

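Among the divergent member pairs there were some whose shared region held more signal in *dst1∆* chromatin than in naked DNA, named here after their values were seen. Between *NEL1* (a Sec23-like GTPase activator) and *PIH1* (a subunit of the R2TP complex), whose TSSs lie 156 bp apart, it was 29.7 and 58.0 in *dst1∆* and 6.29 in naked DNA. Between *SRP68* (a subunit of the signal recognition particle) and *HUT1* (a UDP-galactose transporter), 180 bp apart, it was 34.9 and 85.9 in *dst1∆* and 14.3 in naked DNA. In *SWD1* (a subunit of the COMPASS histone methylase) and *ERP1* (a protein of COPII vesicles), 172 bp apart, it was 14.3 and 20.5 in *dst1∆* and 3.96 in naked DNA. By contrast, the pair of *PMI40* (phosphomannose isomerase) and *FMP52*, 180 bp apart, had 58.9 and 61.3 in *dst1∆* and 275 in naked DNA.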
